A study of Mus musculus with 2 samples.

Results

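Chemokine receptors are membrane proteins that read gradients of small secreted proteins, the chemokines, and steer leukocytes and other motile cells along them. Most of them are G protein-coupled receptors that signal through inhibitory G proteins and are then switched off by receptor kinases and arrestins. A smaller set, the atypical or scavenging receptors, binds chemokines without classical G protein signalling and removes them from the tissue, which shapes the gradients that the other receptors read. In skin, such receptors are known from monocytes, macrophages, dendritic cells, neutrophils and lymphocytes, and the scavenging receptors also from endothelial, stromal and epithelial cells.

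The genes described here are 9 of the 24421 gene symbols in the table of counts, chosen by name: Ccr1, Ccr2, Ccr7, Cx3cr1, Cxcr2, Cxcr3, Cxcr4, and the scavenging receptors Ackr3 and Ackr4. All 9 were in the table and exceeded 3 counts in 1 or both libraries, the level from which a gene is called measured here. RNA-seq was performed on whole-layer back skin of wild-type C57BL6/J mice. There was 1 library of skin stretched for 5 days (stretched) and 1 library of non-stretched skin at the same day (control). The initial strain was 33%, and the study's methods raised the strain each day to offset skin growth. The study used 8-week-old females whose follicles were in telogen, the resting phase, and discarded the skin glued to the device. The labels give neither the number of mice behind each library nor whether control skin carried the device, and whole-layer skin mixes epidermis, follicles, dermis, fat and striated muscle. The series concerns hair regeneration under mechanical stretch, and the comparison asks which chemokine receptor genes differed between stretched and non-stretched skin.

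There is 1 library per condition, so no difference has a replicate check and no p-value is given. Counts summed to 14152379 in control and 11648655 in stretched skin. CPM is the number of counts per 1000000 of that total, and every interval in brackets is an exact 95% interval that covers counting error only and compares these libraries, not the conditions. The median log2 ratio of CPM over all 16255 measured genes was -0.12. Of the markers of cell types, the 5 pan-leukocyte genes all had intervals above 0, with summed counts of 1965 in control and 4209 in stretched skin. For 12 monocyte and macrophage genes, 11 intervals lay above 0 (10040 and 19529 counts), whereas the 4 keratinocyte genes had a median log2 ratio of 0.08. Of the 4 skeletal muscle genes, 3 intervals lay below 0 (Ckm, Myh4 and Acta1) and 1 above (Des), with a median of -0.56. In bulk RNA, more cells of a type and more RNA per cell cannot be told apart.

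The 9 genes share a short coding stretch that also separates the signalling from the scavenging receptors. It lies at the inner end of the third membrane helix, opens with the 3 codons of the so-called DRY motif, and in classical receptors takes part in coupling to G proteins. The 21 bases from the first of these codons, with the 9 bases of the motif in capitals, were read from GENCODE M21 transcripts and are printed to show how alike the genes are where counting could confuse them, and where they part.
Ccr1: GACAGATACctggccattgtc
Ccr2: GATAGGTACttggctattgtt
Ccr7: GACCGCTACgtagccatcgtc
Cx3cr1: GACCGGTACcttgccatcgtc
Cxcr2: GACCGCTACctggccattgta
Cxcr3: GACAGATATctgagcatagtg
Cxcr4: GACCGGTACctcgctattgtc
Ackr3: GACCGCTATctctccatcacc
Ackr4: GACAGATATtgggcaattacc
The seventh codon was of the GTN family in all 7 signalling receptors and of the ACN family in both scavenging receptors. Over whole transcripts the genes shared little sequence with others. Of all stretches of 76 bases, the read length, Ccr1, Ccr7, Cxcr3, Cxcr4 and Ackr3 shared none with another gene, Cx3cr1 shared 0.09%, Ccr2 shared 1.14% and Cxcr2 shared 1.68%. For Ackr4 the share was 6.26%, because 479 of its exonic bases overlap Acad11 on the other strand. The treatment of strand is not given in the sources used here.

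Ccr1, Ccr2, Ccr7, Cx3cr1, Cxcr2 and Cxcr3 had at least 2-fold higher CPM in stretched skin, while the ratios of Cxcr4, Ackr3 and Ackr4 lay between 0.866 and 1.41. These were 6 of the 9 genes, against 6.32% of all measured genes, and none was at or below 0.5-fold, against 5.47%. For 7 of 9 the interval lay wholly above 0 (18.1% of all genes), and for 0 of 9 wholly below it (33.5% of all genes). The interval lay wholly past 2-fold for 5 of 9 (Ccr1, Ccr2, Ccr7, Cx3cr1 and Cxcr2), against 2.41% of all genes, and for 0 of 9 wholly below 0.5-fold, against 1.96%. Ccr7 enters each of these counts of higher genes with only 3 counts in control. It was thus measured only through the stretched library, which fixed its direction. The median log2 ratio of the 9 genes was 1.71. The study's methods call a gene from a fold change and from the product of its FPKM values in both libraries, as estimated by Cufflinks. Here FPKM was computed instead as CPM per kilobase of exon, 1 was added to each value, which the methods do not state, and a 2-fold change with a product above 10 was required. By this modified rule 2 of 9 genes, Ccr1 and Ccr2, were upregulated and none was downregulated, against 2.61% and 2.43% of the genes that passed the filter. Without the added 1, 1 of 9 genes was upregulated, since the product of Ccr1 then fell under the filter. The product was 12.3 for Ccr1, the member just inside the filter, and 5.01 for Cxcr2, the member just outside it, and 5 of the 9 genes passed the filter.

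**Figure D1:**
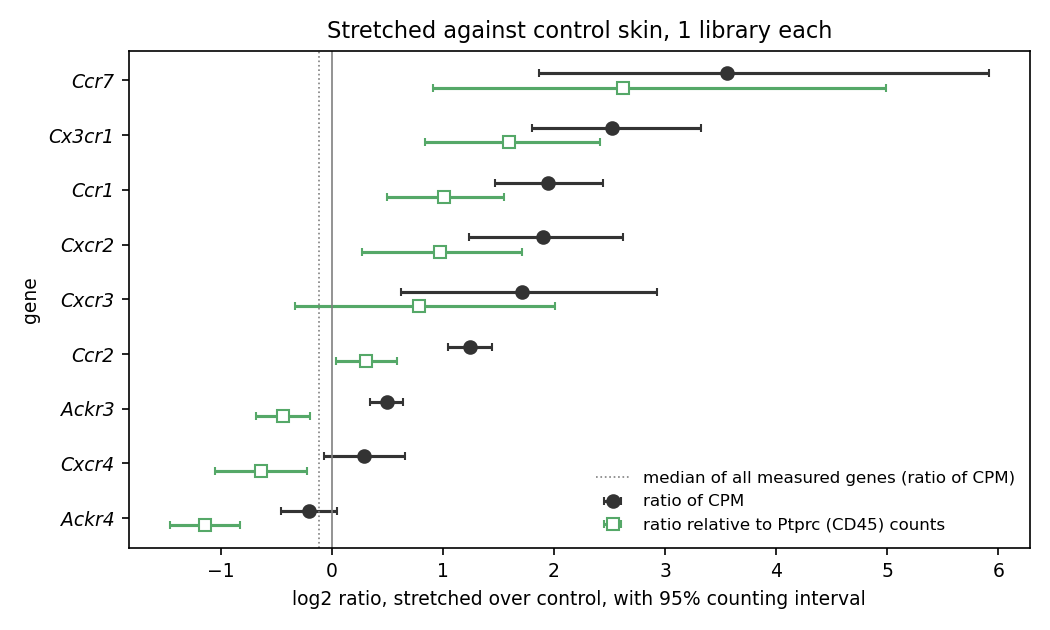
Log2 ratio of stretched over control skin for each gene (x axis), as the ratio of CPM (filled circles) and relative to the counts of Ptprc, which encodes CD45 (open squares), with 95% counting intervals. The circles of 6 genes lie between 1.24 and 3.55, those of Ackr3, Cxcr4 and Ackr4 between -0.21 and 0.49, and the dotted line marks the median of all measured genes at -0.12.

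Ccr2, the receptor through which inflammatory monocytes leave the blood, had the most counts of the signalling receptors. It lies on chromosome 9 of mm10, from 124101950 to 124113557 on the plus strand. It had 319 counts in control and 622 in stretched skin, or 22.5 and 53.4 CPM, and was 2.37-fold higher (2.07 to 2.72). Ccr1, a receptor of monocytes, macrophages and neutrophils, lies on the same chromosome from 123962124 to 123968692. With 48 counts in control and 152 in stretched skin, it was 3.85-fold higher (2.76 to 5.44). The log2 ratio of Ccr1 exceeded that of Ccr2 by 0.70 (0.18 to 1.24). Cx3cr1, the fractalkine receptor of patrolling monocytes and many tissue macrophages, had 19 counts in control and 90 in stretched skin, a 5.75-fold difference (3.48 to 10). It lies on chromosome 9 from 119901616 to 120069879, and the log2 ratio of Ccr2 minus that of Cx3cr1 was -1.28 (-2.103 to -0.52). Among the monocyte and macrophage markers, Adgre1, which encodes F4/80, had 472 and 1148 counts (log2 ratio 1.56, 1.41 to 1.72), and Csf1r had 1763 and 3216 (1.15, 1.06 to 1.23). Their part in the ratios of the receptors was not tested.

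Cxcr2, which draws neutrophils to their chemokines, had 25 counts in control and 77 in stretched skin and was 3.74-fold higher (2.36 to 6.13). The gene lies on chromosome 1 from 74153989 to 74161246. Of 10 listed neutrophil markers 6 were measured, and 5 of these had intervals above 0, with 189 summed counts in control and 762 in stretched skin. S100a8 among them had 57 and 283 counts (2.59, 2.18 to 3.03), and Ngp, a granule gene of immature neutrophils, had 0 counts in both. Retnlg, also among those above 0, had 1 and 31 counts and was measured only through the stretched library. The part of these markers in the ratio of Cxcr2 was not tested.

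Ccr7 guides dendritic cells and naive lymphocytes towards lymphatic vessels and lymph nodes. It had 3 counts in control and 29 in stretched skin, or 0.212 and 2.49 CPM. The ratio of 11.7 is the largest of the 9 genes and has the widest interval (3.64 to 60.2). Its control count lies at the floor, so Ccr7 was measured only through the stretched library and its direction was fixed by that. The gene lies on chromosome 11 from 99144196 to 99155077. Cxcr3, a receptor of activated T and NK cells, lies on chromosome X from 101731535 to 101734269. It had 10 counts in control and 27 in stretched skin, 3.28-fold more CPM (1.54 to 7.60). The intervals of Ccr7 and Cxcr3 against each other included 0, so their order was not detectable at this depth. Dendritic cell markers had 1171 summed counts in control and 1640 in stretched skin, with 5 of 7 measured genes above 0, among them Flt3 with 16 and 33 counts (1.33, 0.42 to 2.29). T and NK cell markers had 198 and 265, with 3 of 10 measured genes above 0. These were Cd4 (15 and 56 counts), Ncr1 (0 and 5) and Gzma (1 and 8). Ncr1 and Gzma were measured only through the stretched library. Cd3e, part of the T cell receptor complex, had 27 and 24 counts (0.11, -0.75 to 0.96). Of 4 B cell markers, 2 were measured and neither had an interval off 0, and Ms4a1 had 0 counts in both libraries. The part of these cells in the ratios of Ccr7 and Cxcr3 was not tested.

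Cxcr4, the receptor of Cxcl12 on leukocytes, vessels and many progenitor cells, lies on chromosome 1 from 128588199 to 128592293. It had 128 counts in control and 129 in stretched skin, a ratio of CPM of 1.22 (0.951 to 1.58). The interval includes 1, but it lay above 1 with 3 of 4 other scalings of the libraries, and a 2-fold difference lies outside it. Ackr3, which takes up Cxcl12 and Cxcl11 without G protein signalling, had the most counts of all 9 genes. It lies on chromosome 1 from 90203980 to 90216751 and had 680 counts in control and 788 in stretched skin, 1.41-fold more CPM (1.27 to 1.56). Ackr4, which clears Ccl19, Ccl21 and Ccl25, lies on chromosome 9 from 104084157 to 104126933. It was the one gene with a lower CPM in stretched skin, with 317 counts in control and 226 in stretched skin, a ratio of 0.866 (0.727 to 1.03) whose interval included 1. Acad11, which overlaps it on the other strand, had 711 and 427 counts (log2 ratio -0.45, -0.63 to -0.28), and the part of its reads in the value of Ackr4 was not tested. As markers of cells known to carry these receptors, Pecam1 of endothelium had 851 and 988 counts (0.50, 0.36 to 0.63), and 3 of 8 endothelial markers had intervals above 0 and 1 below. All 6 fibroblast markers had intervals above 0, with a median log2 ratio of 0.60. The part of these cells in the values of Ackr3, Ackr4 and Cxcr4 was not tested.

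Each gene was also compared with each other gene, where the scaling of the libraries drops out. Of the 36 pairs, 23 differed in log2 ratio by more than counting error, and the intervals of 13 included 0. The 6 genes at 2-fold or more were hard to tell apart, with 12 of their 15 pairs including 0. Ccr2, the lowest of them, exceeded Ackr3, the highest of the other 3 genes, by 0.75 (0.50 to 1.001) on the log2 scale. Ackr3 exceeded Ackr4 by 0.70 (0.41 to 0.996), a difference between the scavenging receptors that is larger than counting error.

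**Figure D2:**
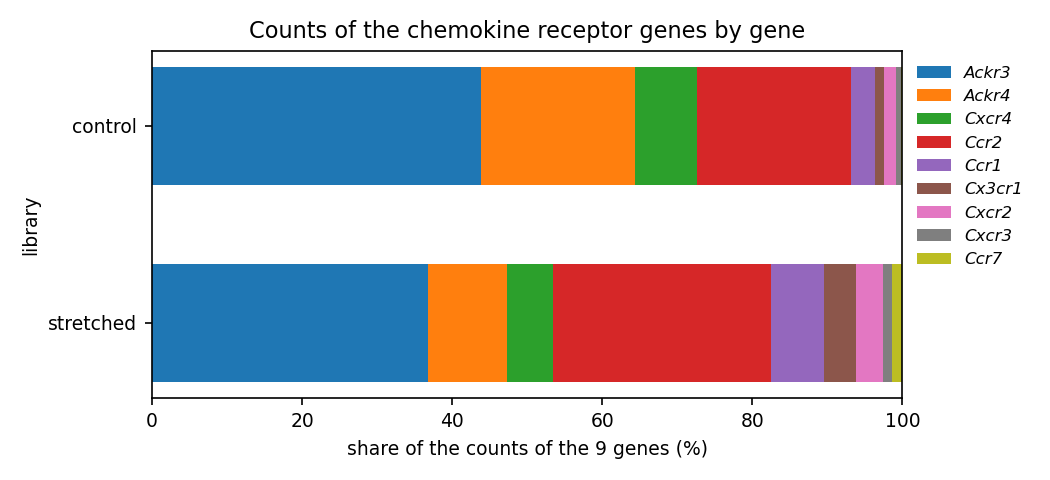
Share of the summed counts of the 9 genes (x axis, %) taken by each gene in control and stretched skin, 1 library each. Ackr3 and Ackr4 together take 64.4% in control and 47.4% in stretched skin, and Ccr1, Ccr2 and Cx3cr1 together take 24.9% and 40.4%.

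The make-up of the counts of the 9 genes therefore differed between the libraries, which restates the ratios above. These shares are of counts not divided by exon length, so long transcripts weigh more. Ackr3 and Ackr4 held 64.4% of the 1549 counts of the 9 genes in control (exact interval 61.9% to 66.8%) and 47.4% of the 2140 in stretched skin (45.2% to 49.5%). Ccr1, Ccr2 and Cx3cr1 together held 24.9% (22.8% to 27.2%) and 40.4% (38.3% to 42.5%). Cxcr4 held 8.26% in control (6.94% to 9.75%) and 6.03% in stretched skin (5.06% to 7.12%). The slight overlap of these intervals does not show that the shares were equal.

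Per exon length, Ackr3 was the highest gene in both libraries, at 14.4 FPKM in control (13.3 to 15.5) and 20.2 FPKM in stretched skin (18.8 to 21.7). In control skin Cxcr4 (5.00 FPKM), Ackr4 (4.16 FPKM) and Ccr2 (3.33 FPKM) came next, and the intervals of neighbours in this order overlapped. Ccr1 followed at 1.20 FPKM and lay apart from its neighbours on both sides. Cxcr2, Cxcr3, Cx3cr1 and Ccr7 followed in this order, between 0.107 and 0.580 FPKM, and the intervals of neighbours overlapped. In stretched skin Ccr2 stood second at 7.90 FPKM (7.29 to 8.54), just apart from Cxcr4 at 6.13 FPKM (5.11 to 7.28). Ccr1 reached 4.61 FPKM and its interval overlapped those of both Cxcr4 and Ackr4 (3.61 FPKM). The 4 lowest genes lay between 1.26 and 2.17 FPKM, with neighbours that could not be told apart. The level of Ackr4 depends on its gene model, since with the length of its longest transcript it was 8.30 FPKM in control and 7.19 FPKM in stretched skin, next after Ackr3 in control and after Ackr3 and Ccr2 in stretched skin.

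**Figure D3:**
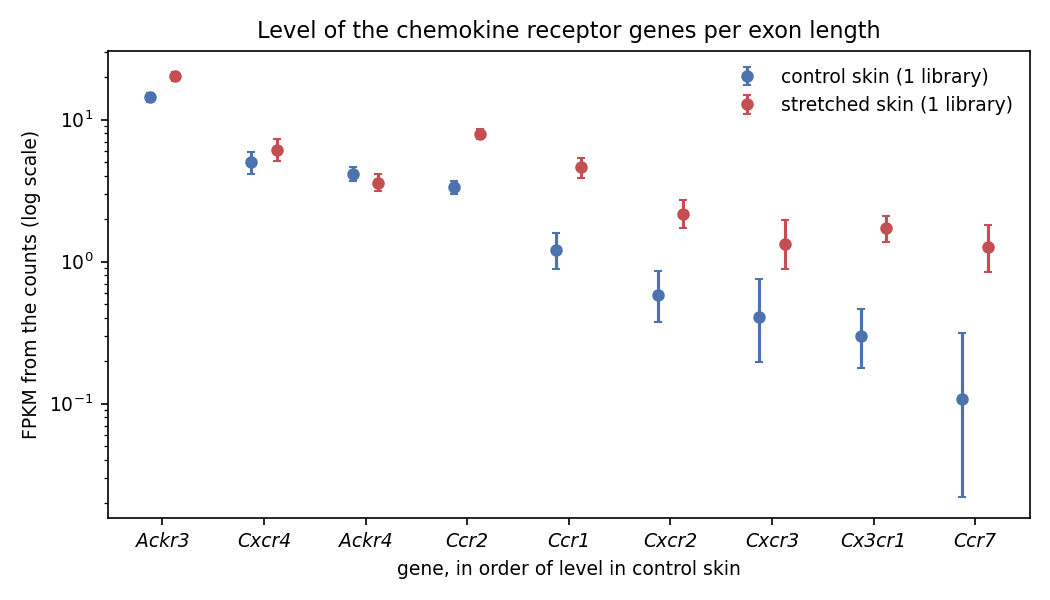
FPKM computed from the counts (y axis, log scale) for each gene in control and stretched skin, 1 library each, with 95% counting intervals. Ackr3 is highest in both libraries at 14.4 and 20.2 FPKM, and Ccr7 lowest at 0.107 and 1.26 FPKM.

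Since leukocyte genes as a group were higher in stretched skin, each receptor was also set against Ptprc, which encodes CD45 on nucleated blood cells and had 371 counts in control and 583 in stretched skin (0.93, 0.74 to 1.12). Ccr1 went from 12.9 to 26.1 counts per 100 of Ptprc (log2 ratio 1.01, 0.49 to 1.55), and Cx3cr1 from 5.12 to 15.4 (1.59, 0.84 to 2.41). Intervals lay above 0 also for Ccr7 (2.62, 0.91 to 4.99), Cxcr2 (0.97, 0.27 to 1.71) and Ccr2 (0.31, 0.03 to 0.59), and that of Cxcr3 included 0 (0.78, -0.33 to 2.01). Relative to Ptprc, Cxcr4 (-0.64, -1.05 to -0.23), Ackr3 (-0.44, -0.68 to -0.20) and Ackr4 (-1.14, -1.46 to -0.82) were lower in stretched skin, their own ratios lying below that of Ptprc. These values depend on the reference gene. Against Adgre1, Ccr7 (1.99, 0.29 to 4.36) and Cx3cr1 (0.96, 0.22 to 1.78) kept intervals above 0, those of Ccr1 (0.38, -0.12 to 0.91) and Cxcr2 (0.34, -0.35 to 1.07) included 0, and Ccr2 was lower in stretched skin (-0.32, -0.57 to -0.06). Against the summed pan-leukocyte genes Ccr2 was at -0.14 (-0.35 to 0.08) and Cxcr2 at 0.52 (-0.15 to 1.24), both with intervals that included 0.

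The ligand genes were then read beside their receptors, using a list of the main mouse ligands of each. Of 22 ligand genes, 18 were measured, all 18 had a higher CPM in stretched skin (38.5% of all measured genes did), and 13 had intervals above 0 (18.1% of all genes). Their median log2 ratio was 1.23. Ccl3, Cxcl2, Cxcl3, Cxcl5 and Ppbp had 3 or fewer counts in control and were measured only through the stretched library. Their higher CPM was thus fixed by the floor, and Ccl3, Cxcl2 and Cxcl5 are among the 13. By the modified rule 4 ligand genes were upregulated of the 8 that passed the filter, against 2.61% of all genes that passed it. The other 4 ligand genes had 3 or fewer counts in each library. For Ccr1, all 5 ligands had intervals above 0, with Ccl6 the most abundant at 1052 and 2123 counts (1.29, 1.19 to 1.40) and Ccl9 (639 and 1178 counts) and Ccl7 (77 and 237 counts) also upregulated. For Ccr2, Ccl2 (52 and 216 counts) and Ccl7 were upregulated, with log2 ratios of 2.34 and 1.90, beside 1.24 for the receptor itself. The remaining 1 of the 3 ligands of Ccr2, Ccl12, had 28 and 36 counts (0.64, -0.11 to 1.41). For Cxcr2, 2 of 5 ligands had intervals above 0 and none had more than 61 counts in a library. Cxcl2 had the most counts over both libraries, 2 in control and 61 in stretched skin, and Cxcl1 had 17 and 19. Cxcl10, the most abundant ligand of Cxcr3, had 17 and 63 counts (2.17, 1.38 to 3.04).

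**Figure D4:**
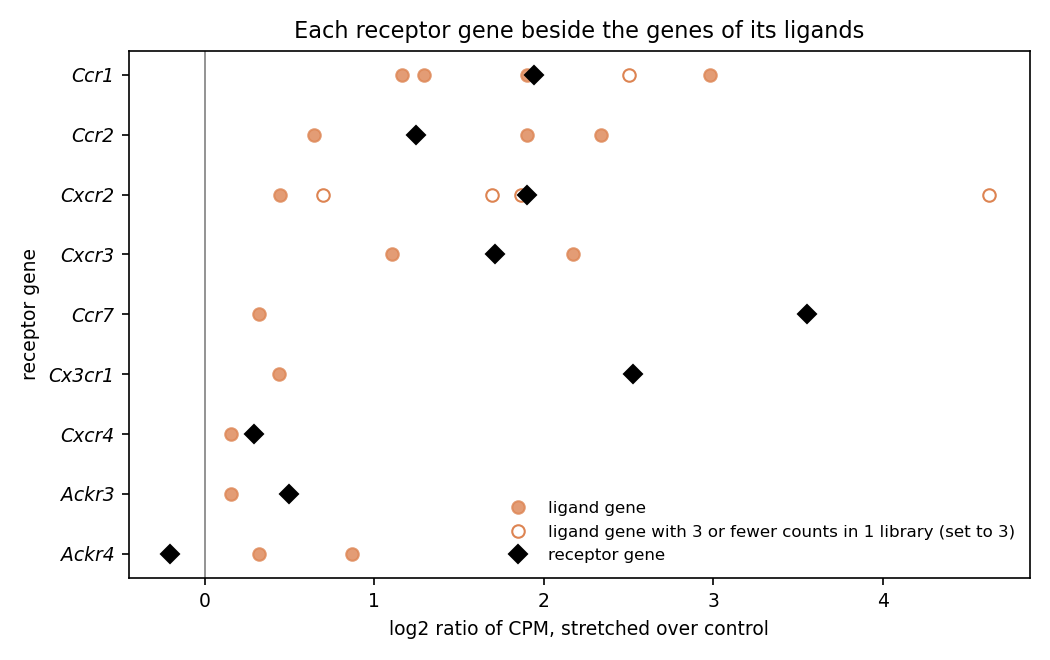
Log2 ratio of CPM, stretched over control (x axis), of each receptor gene (diamonds) and of the measured genes of its ligands (circles, open where a library had 3 or fewer counts, which were set to 3). The ligand circles of Ccr1 span 1.16 to 2.98, whereas Cxcl12 lies at 0.16 beside Cxcr4 at 0.29 and Ackr3 at 0.49.

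Differences between a receptor and its ligands were not tested. Cx3cl1, the fractalkine gene, had 180 counts in control and 201 in stretched skin (0.44, 0.14 to 0.74) beside a log2 ratio of 2.52 for Cx3cr1. Cxcl12, the shared ligand of Cxcr4 and Ackr3, had 2103 and 1929 counts (0.16, 0.07 to 0.25). Ccl19, which Ccr7 and Ackr4 both bind, had 326 and 335 counts (0.32, 0.10 to 0.54), but it shares 45.0% of its stretches with other genes and is uncertain. The Ccl21 genes were listed at 0 in both libraries and have near-identical copies, so the main lymphatic ligand of Ccr7 could not be read.

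Among 14 other chemokine receptors, 12 were measured, none was called by the modified rule, 4 had intervals above 0 and 1 below, and the median log2 ratio was 0.41. Ackr1, the chemokine-binding receptor of venules, was the most abundant with 268 and 396 counts (0.84, 0.62 to 1.07), and 25.7% of its exonic bases overlap Cadm3. Of 22 genes of receptor signalling and desensitization, 15 had intervals above 0 and 3 below (18.1% and 33.5% of all genes), with a median of 0.36. The 2 upregulated genes, against 2.61% of all that passed the filter, were Pik3r5, a regulatory subunit of the G protein-activated PI3-kinase of leukocytes, with 79 and 274 counts (2.08, 1.71 to 2.46), and Rac2, a leukocyte GTPase, with 175 and 407 counts (1.499, 1.24 to 1.76). Gnai2, which encodes an inhibitory G protein subunit, had the most counts over both libraries, 3594 and 4043 (0.45, 0.39 to 0.52). Over 45 ligand, receptor and signalling genes with at least 20 counts, the log2 ratio nearest to that of Ccr1 (1.94) was that of Ccl7 (1.90), and nearest to Cxcr4 (0.29) was Arrb1 (0.28). For Cxcr2 and Cxcr3 it was again Ccl7, for Ccr2 it was Ccl6, for Ccr7 Ccl5 (2.98), for Ackr3 Gnai2 and for Ackr4 Ccr10. With 2 libraries, likeness is this difference alone.

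The promoters of the members were read for sequence features, as a description. RefSeq promoters on GRCm38.p6, from 250 bases before to 50 bases after the start, were found for 8 of the 9 genes, all but Ccr7. Ccr1 and Ccr2 had 1 CpG dinucleotide each (the letters CG), Cxcr2 had 2, Cxcr3 had 4 and Cx3cr1 had 5. Ackr3 had 8, Ackr4 had 10 and Cxcr4 had 20. At most 5 were thus found in 5 of the 8 promoters and in 43.6% of all 32851 promoters. The cutoff of 5 is the count of Cx3cr1, the highest among the genes at 2-fold or more. It therefore follows the ratios already seen and is a description only. The promoters with the fewest and the most are printed with CG in capitals, that of Ccr1 from chr9:123968643-123968942 and that of Cxcr4 from chr1:128592250-128592549, both on the minus strand.
Ccr1: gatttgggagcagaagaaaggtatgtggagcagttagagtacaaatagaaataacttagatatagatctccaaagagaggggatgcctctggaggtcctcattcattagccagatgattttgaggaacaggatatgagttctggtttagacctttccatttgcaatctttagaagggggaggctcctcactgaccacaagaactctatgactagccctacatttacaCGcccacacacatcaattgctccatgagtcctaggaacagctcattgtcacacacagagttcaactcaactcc
Cxcr4: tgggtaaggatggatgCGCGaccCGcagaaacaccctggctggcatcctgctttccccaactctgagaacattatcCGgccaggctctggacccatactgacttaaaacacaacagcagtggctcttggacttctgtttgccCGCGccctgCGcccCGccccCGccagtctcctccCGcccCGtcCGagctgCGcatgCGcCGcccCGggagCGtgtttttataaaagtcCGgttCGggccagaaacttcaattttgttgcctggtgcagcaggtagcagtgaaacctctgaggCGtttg
Searched on both strands, a kappaB-type and an interferon-response-type motif were found in none of the 8 promoters and in 5.56% and 3.44% of all promoters. GAGGAAGT, an ETS-type motif, was found in that of Cxcr3 (3.2% of all promoters), and ACGTG, of the hypoxia-response type, in that of Ackr4 (19.6%).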

How the data were processed

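The authors filtered single-end reads of 76 bases on quality, aligned them to mm10 with TopHat2, as the submitters' processing notes also state, and deposited raw counts per gene symbol, without normalization. The program that counted the reads is not given in the sources used here. From these counts, CPM used the total count of each library, and FPKM used the union of exons in GENCODE M21 (GRCm38), found for 98.4% of symbols. Counts of 3 or fewer were set to 3 in log2 ratios, and 1 was added to FPKM for calls. Intervals are Clopper-Pearson for shares and ratios, exact Poisson for levels, and exact conditional for ratios of ratios.

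No test across replicates was possible. The members and lists were chosen with earlier results of these data known. All members are named, with called pathway genes, the gene of each pathway list with the most counts over both libraries, the pathway gene nearest in ratio to each member (1 is not reported here) and fixed markers. Other called marker genes are given as counts. Scaling alternatives used edgeR 4.0.16 (TMM) and DESeq2 1.42.0 (median of ratios). Calls and intervals were tested on simulated data. Python 3.11.15, scipy 1.17.1 and R 4.3.3 were used.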

Additional observations from a re-analysis of the deposited data

How the results depend on the processing

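Scaling by TMM, median of ratios, upper quartile, or totals without the top 50 genes raised every log2 ratio by 0.10, 0.11, 0.10 or 0.06. No member's ratio moved beyond its counting interval, and the counts of 2 upregulated members and 0 intervals below 0 stayed. Intervals above 0 numbered 8 in place of 7 under the first 3 scalings, Cxcr4 being added, and 7 under the last. The call depends on its filter. It counted 1 upregulated member with a pseudocount of 0.1, 1 without a pseudocount, 0 with a product above 100, 4 with CPM in place of FPKM, 6 with the ratio of CPM and no filter, and 5 where the counting interval had to lie wholly past 2-fold. A smaller pseudocount lowers the product and a higher threshold tests fewer genes. The median of the 9 genes fell to 1.21 on the log2 scale after adding 1 CPM, which shrinks the ratios of genes with few counts. Intervals above 0 relative to Ptprc numbered 5, against 3 with the summed pan-leukocyte markers and 2 with Adgre1, and Ccr2 changed sign, to -0.14 and -0.32. Leaving out Ackr4, chosen after seeing the data, left 2 upregulated members and a median of 1.81. No paired analysis was possible because each condition holds a single library, so leaving out a replicate could not be tried either. Depth limits Ccr7 and Cxcr3 most.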

Other observations

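Ccr1 and Ccr2 lie in a cluster of receptor genes on chromosome 9 of mm10, and the neighbours described here had few counts. In order along the chromosome, Ccr9 (123678439 to 123784330) had 16 counts in control and 13 in stretched skin, and Cxcr6, a receptor of resident and activated T cells, had 13 and 24 (log2 ratio 1.17, 0.13 to 2.26). Xcr1, the receptor of cross-presenting dendritic cells, had 28 and 17 counts (-0.44, -1.40 to 0.48), and Ccr3, between Ccr1 and Ccr2, had 2 and 8. The neighbours were named after their values were seen.

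Ccr4, a receptor of skin-homing and regulatory T cells, was the one chemokine receptor gene whose interval lay below 0, with 125 counts in control and 59 in stretched skin (-0.80, -1.27 to -0.34). It was also named after its value was seen.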
